A study of Mus musculus with 4 samples.

Results

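The genes described here are 32 of the 27998 genes shared by 4 single-cell RNA libraries of mouse mammary tissue. They were chosen by name for what they are known to do, with earlier results of these data known. In one group of 16 are the glucose importer, the enzymes that take glucose to lactate and the lactate exporter (called the glycolysis genes here). The other 16 are further genes known to respond to low oxygen (called the oxygen-responsive genes). All 32 were present in the 4 libraries. The libraries followed mammary tumour formation in female mice of mixed background with floxed Trp53 and Brca1 alleles and a YFP reporter in Rosa26 (Trp53L/L;Brca1L/L;R26Y). Ad-K8-Cre, an adenovirus that carries Cre behind the promoter of keratin 8, a luminal keratin, had been injected into the milk ducts of every animal. The 2 weeks library held YFP+ mammary epithelial cells sorted about 2 weeks after injection. The 5 months library held YFP+ epithelial cells together with sorted CD45+ leukocytes about 5 months after injection. Tumour 1 and tumour 2 held DAPI- live cells of 2 tumour masses of the same model, with no YFP sort, so their epithelial barcodes were not selected for Cre activity. There was no library without the deletions, and the labels do not say how many mice each library came from or whether the tumours grew in separate mice.

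Cells make ATP from glucose either by full oxidation in mitochondria or by glycolysis to lactate. When oxygen is short, the prolyl hydroxylases that mark hypoxia-inducible factor for destruction slow down, the factor accumulates as a protein, binds short DNA motifs and raises transcription of many glycolytic enzymes and of genes for vessel growth, pH control, mitophagy and collagen folding. Glycolytic enzymes also follow growth signals and inflammatory activation, as in macrophages and neutrophils, so their RNA alone does not report oxygen.

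Barcodes were taken as epithelial when they held at least 3 UMIs of Krt8 and Krt18 together and none of Ptprc, the gene of CD45. They were taken as myeloid when they held at least 3 UMIs of Tyrobp, an adaptor protein of myeloid and natural killer cells. The epithelial barcodes numbered 1133 at 2 weeks, 426 at 5 months, 325 in tumour 1 and 377 in tumour 2, with medians of 4163, 4527, 14035 and 8156 UMIs. The Tyrobp barcodes numbered 801, 1963 and 766 in the last 3 libraries, with medians of 3501, 6526 and 6180.5 UMIs. At 2 weeks there were 5 Tyrobp barcodes, which were not compared. Levels are in CPM, that is UMIs of a gene for every 1000000 UMIs of all genes, both summed over such barcodes of a library, and intervals on them hold counting error only. None of the 7 luminal markers was at 0 in the epithelial barcodes, and their summed level was 6476, 6793, 1686 and 4574 CPM, lowest in tumour 1. The 8 macrophage and monocyte markers summed to 195, 432, 486 and 346 CPM there, against 9281, 24089 and 12212 CPM in the Tyrobp barcodes. Barcodes that met both definitions (0, 5, 72 and 38) were left out, and 2 to 16 barcode sequences were shared between any pair of libraries. In bulk sums, fewer cells of a type and less RNA per cell cannot be told apart. The 2 weeks library stood apart in one respect. Of 81 abundant ribosomal protein genes, 10 were at under 1/8 of the lowest other library there, counted over all barcodes. For example, Fau was at 49.7 CPM against 4865, 3485 and 4438 CPM. The cause was not tested, and a count at 2 weeks may be low for a gene whose sequence has near copies.

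Promoters are shown for members on which the results turn, because the textbook binding core of hypoxia-inducible factor is short enough to be read in them. From the RefSeq table for GRCm38.p6, 30 of the 32 members had a promoter (Bnip3l and Ndrg1 were not matched, and Ero1l is listed as Ero1a). The letters searched were ACGTG and GCGTG on both strands in the 300 bases from 250 before to 50 after each start, and a palindromic CACGTG counts as 2 overlapping matches. At least 1 core was found for 28 of 30 members (93.3%), against 46.7% of 27025 genes with windows of that length. At least 2 were found for 24 members (80.0%), against 22.9% of genes. These shares describe letters, which also follow base composition, and a match is not a bound site. All 14 oxygen-responsive genes with a promoter had a core, and 14 of the 16 glycolysis genes did. In the 120 bases before the start, 5′ to 3′ on the gene's strand, capitals mark the cores on either strand. Bnip3 and Slc16a3 were the members higher in tumour epithelial barcodes than at 2 weeks by the test below, Hk2 and Adm differed in opposite directions between epithelial and Tyrobp barcodes, and Gpi1 is shown as a member with no core in its window.
Bnip3, chr7:138909507-138909626, minus strand: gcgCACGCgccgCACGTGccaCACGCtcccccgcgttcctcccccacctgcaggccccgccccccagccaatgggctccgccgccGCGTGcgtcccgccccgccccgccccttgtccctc
Slc16a3, chr11:120948947-120949066, plus strand: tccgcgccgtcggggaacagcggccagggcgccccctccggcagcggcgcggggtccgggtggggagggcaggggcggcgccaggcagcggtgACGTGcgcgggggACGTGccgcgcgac
Hk2, chr6:82774455-82774574, minus strand: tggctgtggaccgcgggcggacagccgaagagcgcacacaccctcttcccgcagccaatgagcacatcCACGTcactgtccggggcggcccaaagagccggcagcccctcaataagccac
Adm, chr7:110627537-110627656, plus strand: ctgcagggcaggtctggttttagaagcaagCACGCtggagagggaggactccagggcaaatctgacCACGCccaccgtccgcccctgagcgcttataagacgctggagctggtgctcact
Gpi1, chr7:34230337-34230456, minus strand: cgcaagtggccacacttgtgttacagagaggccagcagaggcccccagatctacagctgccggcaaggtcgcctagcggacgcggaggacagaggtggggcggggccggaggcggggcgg

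In the epithelial barcodes, most glycolysis genes were lowest at 2 weeks and highest in tumour 2. Slc2a1, the main glucose importer of epithelium, was at 19.4, 160, 88.3 and 126 CPM in 2 weeks, 5 months, tumour 1 and tumour 2, the order kept below. The 5 months library was the highest of the 4, above both tumours. In tumour 2, 3 barcodes held 120 of the 422 UMIs of Slc2a1, and its level without them was 90.6 CPM. Hk2, the inducible hexokinase, which traps glucose as its phosphate, was at 2.45, 29.0, 74.4 and 25 CPM, highest in tumour 1. Hk1, the widely expressed hexokinase, was at 26.4, 49.5, 30.4 and 47.0 CPM. The 2 hexokinases thus did not share an order over the libraries: Hk1 was highest at 5 months and in tumour 2.

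The middle enzymes of the pathway were highest in tumour 2. Gpi1, phosphoglucose isomerase, was at 119, 139, 149 and 320 CPM. The phosphofructokinase genes Pfkl and Pfkp, which encode the committed step, were at 25.6, 78.6, 57.9 and 118 CPM and at 13.8, 27.1, 27.4 and 56.8 CPM. Every 90-base window in the last 400 transcript bases of Pfkp (100%) also occurs in 1 other annotated gene, which limits its values. Pfkfb3, which makes the sugar phosphate that activates phosphofructokinase, went another way, at 13.9, 40.0, 25.6 and 8.93 CPM, and was lowest in tumour 2. Aldoa, aldolase A, was at 349, 712, 718 and 1193 CPM, and in the 5 months library 3 barcodes held 241 of its 1495 UMIs, so that its level there was 600.4 CPM without them. Tpi1, triosephosphate isomerase, was at 280, 196, 330 and 676 CPM. For both, tumour 2 was the highest library and tumour 1 was close to a premalignant one.

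Of the payoff enzymes, Gapdh, which makes the first NADH of the pathway, was at 191, 913, 1372 and 3795 CPM. Repeated sequence limits this value: 73.3% of the 90-base windows in its last 400 transcript bases also occur in other annotated genes, 57 in all. Pgk1, phosphoglycerate kinase, was at 6.60, 4.76, 29.8 and 51.5 CPM, with both tumours above both premalignant libraries. Pgam1, phosphoglycerate mutase, was at 172, 146, 368 and 355 CPM, with the same split. Eno1, enolase, was at 92.2, 260, 411 and 781 CPM, and 68.8% of its end windows recur in 1 other gene. Pkm, pyruvate kinase, was at 450, 551, 620 and 1291 CPM. Ldha, the lactate dehydrogenase subunit that turns pyruvate to lactate, was at 311, 750, 587 and 876 CPM, so that the 5 months level lay between those of the tumours. Slc16a3, which exports lactate, was at 0.377, 0.952, 24.7 and 30.1 CPM, that is 2 UMIs in each premalignant library, 123 in tumour 1 and 101 in tumour 2. Its ratio to 2 weeks was 65.6 (95% counting interval 17.8 to 548) in tumour 1 and 79.7 (21.5 to 667) in tumour 2.

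Among the oxygen-responsive genes with mitochondrial roles, Bnip3 ranged widest. Bnip3, a mitophagy receptor of the outer mitochondrial membrane, was at 6.03 CPM (4.13 to 8.52), 21.9 CPM (16 to 29.2), 90.5 CPM (82.4 to 99.3) and 167 CPM (153 to 181). The 95% counting intervals of the 4 libraries did not overlap. Of its end windows, 58.8% recur in 1 other gene. Its relative Bnip3l was at 149, 130, 120 and 222 CPM, with tumour 1 the lowest library. Pdk1, which holds pyruvate out of the citrate cycle, was at 7.35, 17.1, 16.1 and 18.5 CPM, and Higd1a, a small mitochondrial protein, was at 150, 131, 200 and 199 CPM.

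The secreted and surface products were spread differently. Vegfa, the vessel growth factor, was at 8.86, 69.0, 70.4 and 38.7 CPM, with 2 weeks the lowest. Adm, the vasodilator peptide adrenomedullin, was at 1.32, 9.52, 11.7 and 55.1 CPM, highest in tumour 2. Car9, a surface carbonic anhydrase, was at 0.377, 1.90, 3.82 and 14.9 CPM, that is 2 UMIs at 2 weeks, and its ratio to 2 weeks was 10.1 (2.45 to 89.8) in tumour 1 and 39.5 (10.4 to 335) in tumour 2. Ndrg1, a stress-induced gene, was at 69.9, 326, 143 and 182 CPM, and like Slc2a1 was highest at 5 months.

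Hif1a, the regulated subunit of the hypoxia-inducible factor, was at 73.0 CPM (65.9 to 80.6), 22.4 CPM (16.4 to 29.8), 26.2 CPM and 33.3 CPM. It was the only one of the 32 whose 2 weeks level lay above all other libraries by 2-fold or more. Of the prolyl hydroxylases that act on it, Egln1 was at 7.73, 4.76, 13.1 and 10.1 CPM and Egln3 at 6.22, 14.3, 11.9 and 56.5 CPM. P4ha1 and P4ha2, catalytic subunits of the collagen prolyl hydroxylases, were at 11.1, 7.14, 41.0 and 29.5 CPM and at 4.90, 3.81, 13.9 and 11.6 CPM, both with the tumours above. Ero1l, which passes electrons in oxidative protein folding, was at 18.5, 50, 45.5 and 312 CPM, with tumour 2 far above the other 3. Ankrd37 was at 1.51, 8.09, 12.5 and 34.2 CPM, and Ddit4, an inhibitor of mTOR signalling, at 74.3, 85.2, 42.9 and 93.2 CPM.

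**Figure D1:**
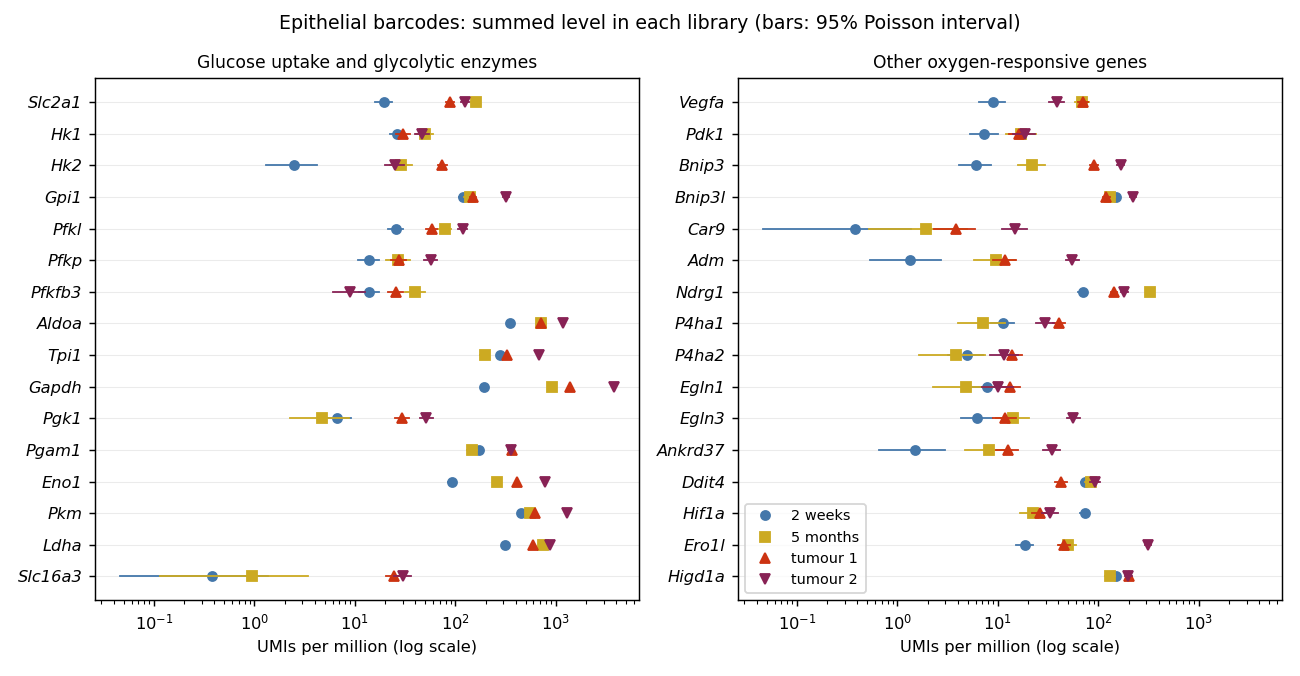
Level of each of the 32 genes in the epithelial barcodes of each library (x axis, CPM, log scale); points are libraries and bars are 95% Poisson intervals. Slc16a3, Pgk1 and Bnip3 are among the members with both tumours to the right of both premalignant libraries. Slc2a1 and Ndrg1 are highest at 5 months (160 and 326 CPM), and Ero1l is far to the right in tumour 2 alone (312 CPM).

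By edgeR's quasi-likelihood test with Benjamini-Hochberg adjustment over 12096 genes, 2 of the 32 members were higher in the tumours than at 2 weeks (background 0.744% of genes) and 0 were lower (background 0.686%). Slc16a3 rose by 6.15 on the log2 scale (SE 0.92, adjusted p = 0.030 by edgeR) and Bnip3 by 4.48 (SE 0.73, adjusted p = 0.039 by edgeR), each higher in both tumours. Of the end windows of Bnip3, 58.8% recur in another gene, so its 2 weeks count may be low, which was not tested. Of the 16 glycolysis genes 1 was called and 9 had an unadjusted p under 0.05, and of the 16 oxygen-responsive genes 1 was called and 10 did. Over all genes tested that number was 1902. The median log2 difference was 1.60 over the glycolysis genes and 1.62 over the oxygen-responsive genes, against 0.02 over all genes tested. In both tumours 28 of the 32 members (15 and 13) lay above the 2 weeks level. The share of all genes that did so was not counted, so this number has no background.

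The members given here that missed the threshold against 2 weeks had SEs from 0.51 to 1.18, on both sides of those of the called members. Hk2 differed by 4.45 (SE 0.99, adjusted p = 0.084), Gapdh by 3.82 (SE 0.80, adjusted p = 0.072) and Slc2a1 by 2.54 (SE 0.60, adjusted p = 0.098) in the same edgeR fit. Gapdh has repeated end windows (73.3%), so its 2 weeks count may be low. Among the oxygen-responsive genes, Adm differed by 4.67 (SE 1.18, adjusted p = 0.12), Vegfa by 2.73 (SE 0.71, adjusted p = 0.13) and Hif1a by -1.21 (SE 0.51, adjusted p = 0.31), by edgeR. The fit had 1 residual degree of freedom, because only the tumours are replicated, and p-values measure only the spread between these 2 libraries. The calls did not hold when barcodes meeting both definitions were kept (adjusted p by edgeR 0.062 for Slc16a3 and 0.092 for Bnip3), and that of Bnip3 did not hold without Scrublet doublets (0.061). Luminal cell types also differed: barcodes with hormone-sensing markers (Esr1, Pgr, Prlr, Areg, Cited1) were 910 of 1133 at 2 weeks, 7 of 325 in tumour 1 and 13 of 377 in tumour 2. Within barcodes with progenitor markers (Kit, Elf5, Aldh1a3, Csn3, Wfdc18), a subset chosen after seeing the data, no member and 0 of all genes were called, with Slc16a3 at 4.32 and Bnip3 at 4.82 (adjusted p by edgeR 0.35 and 0.23). Cell cycle genes had a median difference of -1.30 and immediate early genes, which respond to tissue dissociation, one of 0.83. Their part in the members' differences was not tested.

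Leukocytes were far more numerous in the tumour suspensions than at 2 weeks, where 5 barcodes met the Tyrobp definition. Slc16a3 was at 114 and 172 CPM in the Tyrobp barcodes of the tumours, so the epithelial level was 21.8% and 17.5% of it, while the macrophage and monocyte markers in the epithelial barcodes summed to 2.02% and 2.83% of their level in the Tyrobp barcodes. The neutrophil markers came to 18.8% in tumour 1 and 2.07% in tumour 2. In barcodes of B and T cells (lymphoid barcodes), Slc16a3 was at 19.0 CPM (2 UMIs) and 27.6 CPM (12 UMIs), close to the epithelial level. Bnip3 was at 9.5 CPM (1 UMI) and 4.59 CPM (2 UMIs) there, far below its epithelial level of 90.5 and 167 CPM. Hk2 was at 28.5 CPM (3 UMIs) and 32.2 CPM in the lymphoid barcodes of the tumours, against epithelial levels of 74.4 and 25 CPM. In tumour 2 its epithelial level was thus not above the lymphoid one. At 5 months it was, at 29.0 against 17.7 CPM. In the Tyrobp barcodes Hk2 was also higher in tumour 1 than in tumour 2, at 185 and 86.6 CPM. The part of other cells' RNA in the Slc16a3 and Hk2 differences was not tested.

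Against 5 months, with the same tumour libraries, 0 of 32 members passed in either direction by edgeR (background 0.0248% of genes higher and 0.298% lower), 4 had an unadjusted p under 0.05, as did 1055 of all 12096 genes, and DESeq2 called 0. Slc16a3 differed by 4.72 (SE 0.91, adjusted p = 0.14 by edgeR), Pgk1 by 2.99 (SE 0.74, adjusted p = 0.25) and Bnip3 by 2.46 (SE 0.66, adjusted p = 0.29). The ratio of Slc16a3 to 5 months was 26.0 (7.04 to 217) in tumour 1 and 31.6 (8.52 to 264) in tumour 2. Slc2a1 and Vegfa differed by -0.66 (SE 0.51) and -0.39 (SE 0.60), with adjusted p of 0.83 and 0.94 by edgeR. The median difference was 0.68 over the glycolysis genes and 1.18 over the oxygen-responsive genes, against 0.06 over all genes. Cell cycle genes had a median of 1.44, with 16 of 16 above 0, and immediate early genes one of -1.28, with 10 of 14 at 2-fold or more below, and their part in the members' differences was not tested. Both tumours lay above 5 months for 19 of 32 members and below it for 4, again with no count over all genes. Without tumour 2, the median over the members was 0.21, and without tumour 1 it was 1.01.

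The 5 months and 2 weeks libraries were compared as single libraries, with no test. A gene was counted as apart at a ratio of 2-fold or more (scaled CPM plus 1), provided that the higher library reached 20 CPM. Of 22 members that reached this level, 14 were higher at 5 months (background 15.9% of 5875 genes) and 1, Hif1a, was lower (background 13.0%). The 14 were 10 of 14 glycolysis genes and 4 of 8 oxygen-responsive genes. The log2 ratios were 3.26 for Hk2, 3.13 for Slc2a1, 2.98 for Vegfa, 2.41 for Gapdh, 2.37 for Ndrg1 and 1.85 for Bnip3. Those of Pfkl, Eno1, Pfkfb3, Ero1l, Ldha, Aldoa, Pfkp and Hk1 ran from 1.74 down to 1.04, and that of Hif1a was -1.50. Gapdh, Bnip3, Eno1 and Pfkp have end windows that recur in other genes (73.3%, 58.8%, 68.8% and 100%). Their 2 weeks counts may be low, and the part of this in their ratios was not tested. With scaling by library size alone, 12 members were higher, the all-gene median moved from -0.01 to -0.21, and 746 genes were higher and 1049 lower, against 932 and 761.

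The kind of luminal cell differed between these libraries. Barcodes with UMIs of the hormone-sensing markers numbered 910 at 2 weeks and 37 at 5 months, and those with progenitor markers 151 and 375. Within the progenitor-marker barcodes, Slc2a1 was at 42.0 CPM at 2 weeks and 176 at 5 months, Vegfa at 9.88 and 76.1 and Hif1a at 43.2 and 21.1, and 14 of 23 members were higher (background 14.9% of 5845 genes) and 0 lower (background 10.2%). Within the hormone-sensing-marker barcodes, Slc2a1 was at 12.6 and 14.7 CPM. Vegfa was at 8.41 CPM and at 0 CPM (where 3 UMIs would be 14.7). The 5 months level of Slc2a1 is thus 3 UMIs, and that of Vegfa allows its 2 weeks level. With 37 such barcodes at 5 months, the subset cannot show whether these genes differed. In it, 2 of 17 members were higher (background 17.4% of 6231 genes) and 1 lower (background 13.7%), counts with the same limit. Immediate early genes moved with the members: 10 of 14 were higher at 5 months and 0 lower, with Dusp1 at a log2 ratio of 3.98, Ier3 at 3.76 and Fosb at 3.66. Of 16 cell cycle genes 15 were lower at 5 months, led by Top2a at -5.49 and Cdk1 at -4.27. The part of cell makeup and of tissue handling in the members' differences was not tested.

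The tumours differed from each other as well. In the epithelial barcodes 5 of 28 members were apart and higher in tumour 2 (background 8.1% of 5730 genes) and 2 were higher in tumour 1 (background 11.2%). The log2 ratio of tumour 2 to tumour 1 was 2.64 for Ero1l, 2.05 for Egln3, 2.03 for Adm, 1.35 for Gapdh and 1.27 for Ankrd37, and -1.65 for Hk2 and -1.53 for Pfkfb3. Genes known as targets of the same factor thus lay on opposite sides between 2 tumours of one model. With library size alone, 11 members were higher in tumour 2, the all-gene median moved from -0.03 to 0.10, and 627 genes were higher and 512 lower, against 464 and 639.

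In the Tyrobp barcodes, the same genes were mostly higher in the tumours than at 5 months, and none passed the test. Glucose entry was split: Slc2a1 was at 40.4, 89.9 and 86.6 CPM in 5 months, tumour 1 and tumour 2, and Hk2 at 65.0, 185 and 86.6 CPM, while Hk1 was at 15.4, 12.4 and 19.5 CPM and Pfkfb3 at 36.1, 37.1 and 31.8 CPM. Tpi1 was at 83.4, 438 and 433 CPM, the 2 tumours close to each other and both far above 5 months. Aldoa was at 316, 799 and 878 CPM, Pgk1 at 5.42, 14.6 and 26.0 CPM, Eno1 at 129, 311 and 626 CPM and Ldha at 462, 831 and 921 CPM. Slc16a3 was at 30.1, 114 and 172 CPM, and Gapdh at 698, 1321 and 1936 CPM, both highest in tumour 2. Gpi1 was at 223, 283 and 350.3 CPM, Pfkl at 13.9, 36.0 and 40.9 CPM, Pgam1 at 136, 394 and 399.5 CPM and Pkm at 353, 716 and 884 CPM, again with both tumours above. Pfkp, at 67.8, 41.5 and 67.1 CPM, was lowest in tumour 1.

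Of the oxygen-responsive genes in the Tyrobp barcodes, Bnip3 was at 12.0, 124 and 129 CPM, with both tumours far above 5 months. Vegfa was at 13.2, 124 and 55.7 CPM, highest in tumour 1, and Ero1l at 27.1, 80.3 and 139 CPM, highest in tumour 2. P4ha2 was at 0.602, 12.2 and 4.05 CPM, and with 2 UMIs at 5 months its ratio was 20.2 (5.50 to 168) in tumour 1 and 6.73 (1.64 to 59.2) in tumour 2. P4ha1 was at 24.1, 78.1 and 42.4 CPM and Egln3 at 4.52, 13.1 and 32.2 CPM. Hif1a was at 70.8, 94.1 and 167 CPM, lowest at 5 months and highest in tumour 2. Car9 and Adm were near the bottom of the list, at 6.32, 7.04 and 5.59 CPM and at 3.61, 2.49 and 8.87 CPM. Ndrg1 was at 62.6, 37.5 and 64.8 CPM, so that tumour 1 was the lowest library, as it was for Ddit4 at 39.7, 28.7 and 111 CPM. Pdk1 (10.2, 15.9 and 12.5 CPM), Bnip3l (138, 146 and 193), Egln1 (8.43, 23.0 and 16.4), Ankrd37 (9.33, 13.2 and 24.1) and Higd1a (128, 209.8 and 226) were lowest at 5 months.

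By edgeR's quasi-likelihood test with Benjamini-Hochberg adjustment over 11582 genes, 0 of 32 members passed in either direction (background 0.0% of genes). Of the members 15 had an unadjusted p under 0.05, 10 of them glycolysis genes, against 1080 of all genes, and DESeq2 called 4 (Tpi1, Bnip3, Slc16a3 and Vegfa). DESeq2 also called more of all genes than edgeR, and that count is given with the processing at the end. Bnip3 differed by 3.32 (SE 0.41, adjusted p = 0.42 by edgeR), Tpi1 by 2.32 (SE 0.37, adjusted p = 0.42), Slc16a3 by 2.17 (SE 0.46, adjusted p = 0.44) and Vegfa by 2.70 (SE 0.72, adjusted p = 0.48). The median was 1.13 over the glycolysis genes and 0.86 over the oxygen-responsive genes, against 0.06 over all genes. Both tumours lay above 5 months for 25 of 32 members, a count not made over all genes.

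**Figure D2:**
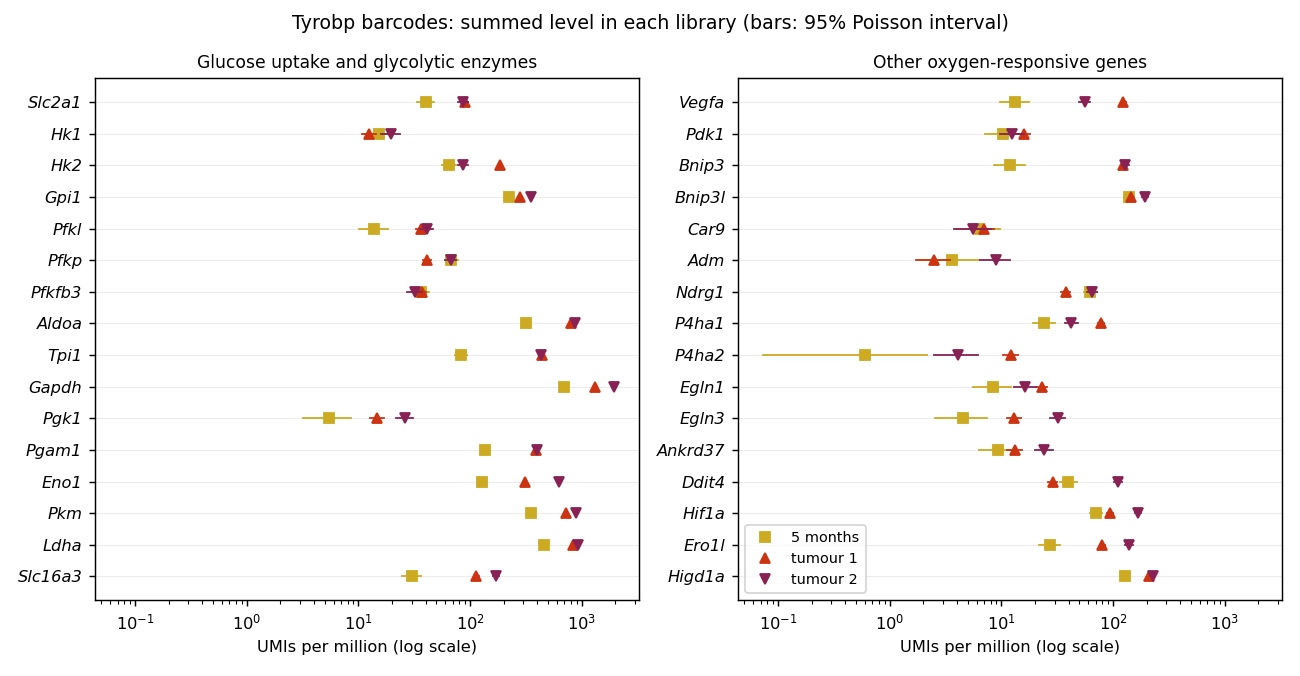
Level of each of the 32 genes in the Tyrobp barcodes of the 5 months, tumour 1 and tumour 2 libraries (x axis, CPM, log scale); points are libraries and bars are 95% Poisson intervals. Bnip3 and Tpi1 lie at nearly the same level in both tumours (124 and 129, 438 and 433 CPM) and well above 5 months, while Vegfa and Hk2 are higher in tumour 1 and Ero1l and Hif1a in tumour 2.

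The Tyrobp barcodes were not one kind of cell in the 3 libraries. Those with C1q UMIs, a macrophage marker, numbered 159 of 801, 1853 of 1963 and 345 of 766, and those with neutrophil markers 47, 23 and 310. Neutrophil markers summed to 1974, 1096 and 29545 CPM. Within the C1q barcodes Bnip3 was at 13.4, 125 and 79.0 CPM, Tpi1 at 94.1, 443 and 418, Slc16a3 at 10.8, 111 and 124 and Vegfa at 10.8, 123 and 60.6 CPM, so both tumours were also above 5 months there. In the neutrophil-marker barcodes of tumour 2, Bnip3 was at 195 CPM, Ero1l at 227, Slc16a3 at 251 and Egln3 at 60.9. Between the tumours, with no test, 2 of 27 members were apart and higher in tumour 2 (background 6.55% of 5116 genes), Ddit4 at a log2 ratio of 1.87 and Egln3 at 1.19. A further 2 were higher in tumour 1 (background 5.45%), Vegfa at -1.18 and Hk2 at -1.13. In the C1q barcodes alone Egln3 was at -0.16.

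Epithelial and Tyrobp barcodes of the same library were compared with the library as a block. By edgeR's quasi-likelihood test with Benjamini-Hochberg adjustment over 12631 genes, 4 members were higher in epithelial barcodes (background 13.8% of genes) and 7 in Tyrobp barcodes (background 15.5%), shares not far from those of all genes. For each of 2 steps of glycolysis, paralogous genes lay on opposite sides, and how often other paralogues do so was not counted. Of the hexokinases, Hk1 was higher in epithelial barcodes by 1.12 (SE 0.27, adjusted p = 0.021 by edgeR) and Hk2 in Tyrobp barcodes, at -1.71 (SE 0.26, adjusted p = 0.0031). Of the phosphofructokinases, Pfkl was higher in epithelial barcodes by 1.25 (SE 0.37, adjusted p = 0.042 by edgeR) and Pfkp in Tyrobp barcodes, at -1.0 (SE 0.29, adjusted p = 0.037). The end windows of Pfkp all recur in another gene (100%). Before scaling, its log2 ratios were -1.29, -0.58 and -0.24 in 5 months, tumour 1 and tumour 2. Slc16a3 was at -3.08 (SE 0.43, adjusted p = 0.0022) and Gpi1 at -0.87 (SE 0.26, adjusted p = 0.043), both higher in Tyrobp barcodes by edgeR.

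Of the oxygen-responsive genes, Adm was higher in epithelial barcodes by 1.86 (SE 0.36, adjusted p = 0.0083 by edgeR) and Ndrg1 by 1.64 (SE 0.28, adjusted p = 0.0048). Hif1a was higher in Tyrobp barcodes, at -2.24 (SE 0.27, adjusted p = 0.0012 by edgeR), as were P4ha1 at -1.30 (SE 0.31, adjusted p = 0.018) and Egln1 at -1.07 (SE 0.31, adjusted p = 0.040). The log2 ratios of Hif1a were -1.62, -1.81 and -2.29 in 5 months, tumour 1 and tumour 2, and those of Adm 1.19, 1.86 and 2.50, the same side in 3 of 3 libraries. Bnip3 was at -0.07 (SE 0.31, adjusted p = 0.89 by edgeR). In the 3 libraries 8 members were on the epithelial side in each, 7 on the Tyrobp side in each and 17 mixed. These sides are read from CPM ratios before scaling between libraries, and the same count was not made over all genes.

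These calls depended on scaling and on single libraries. Scaling by library size alone moved the median of all genes from 0.03 to 0.32, and turned 1740 genes higher and 1953 lower into 2533 and 1598. With that scaling 4 members were called on the Tyrobp side. Without tumour 2, 1 member was called on the epithelial side and 4 on the Tyrobp side, and without tumour 1, 3 and 3. Without 5 months these were 2 and 6. The range of all genes called when a library was left out is given with the processing at the end. Hif1a and Ndrg1 were called in all 14 alternatives.

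**Figure D3:**
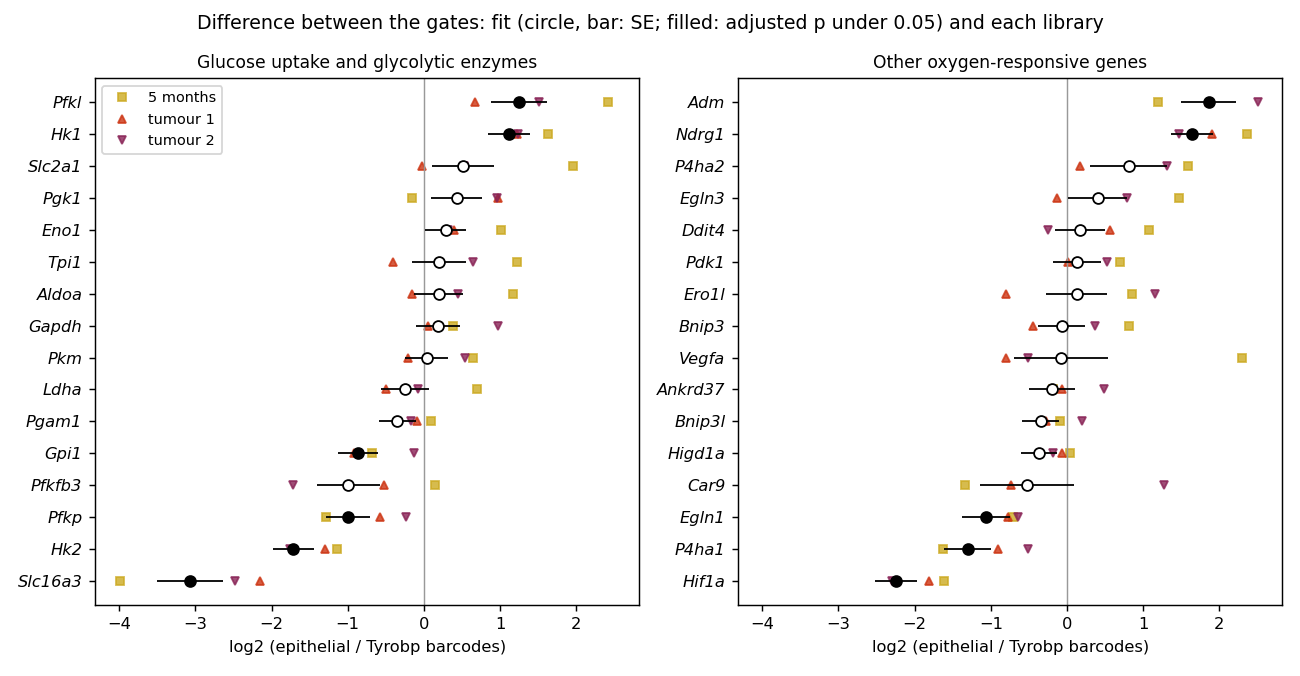
Log2 ratio of epithelial to Tyrobp barcodes for each member (x axis); circles are the fitted difference over 3 libraries with its SE, filled where the adjusted p was under 0.05, and small symbols are CPM ratios of single libraries before scaling between libraries. Slc16a3 and Hif1a lie farthest to the left (-3.08 and -2.24) and Adm and Ndrg1 farthest to the right (1.86 and 1.64), and the 5 months symbol of Vegfa (2.30) stands apart from the tumours' (-0.81 and -0.52).

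Whether the difference between the gates was itself different in the tumours was tested as an interaction. By edgeR's quasi-likelihood test with Benjamini-Hochberg adjustment, 0 of 32 members passed (background 0.00792% of genes higher and 0.0238% lower), 4 had an unadjusted p under 0.05, as did 1090 of all 12631 genes, and DESeq2 called 1, Vegfa. The alternatives also changed the count of all genes called, given with the processing at the end. Vegfa changed sides, with log2 ratios of 2.30 at 5 months and -0.81 and -0.52 in the tumours, and its interaction was -3.11 (SE 0.53, adjusted p = 0.16 by edgeR). Over 9 alternatives its adjusted p ran from 0.00030 to 1.0, and 3 of them called it. Slc2a1 had ratios of 1.96, -0.03 and 0.53, and an interaction of -1.78 (SE 0.51, adjusted p = 0.40 by edgeR).

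Other genes of the pathways were read from lists of related genes. Against 2 weeks, 0 of 15 other glycolysis genes, 0 of 16 genes of pyruvate entry and the citrate cycle, 0 of 16 respiratory chain genes and 0 of 9 oxygen sensing genes passed by edgeR, with median log2 differences of 0.85, -0.11, -0.65 and 0.13. Of 32 other hypoxia-induced genes, with a median of 0.80, 2 rose, among them Plod2 (lysyl hydroxylase of collagen, 6.14), and 1 fell, Stc2 (stanniocalcin, -4.97). Plod2 was at 0.754, 4.76, 49.9 and 54.8 CPM in the 4 libraries. Against 5 months, and in the Tyrobp barcodes, 0 genes of these lists passed by edgeR.

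Between the gates, 4 of 17 other glycolysis genes were on the epithelial side and 4 on the Tyrobp side. Hk3, a hexokinase of myeloid cells, was at -5.80 and Pfkfb4 at -2.23. Of 32 other hypoxia-induced genes 5 and 6 were called, among them Plod2 at 2.72 and Cxcr4, a chemokine receptor, at -3.88. Pdk4, another kinase of pyruvate dehydrogenase, was at 4.65. Immediate early genes were also on the epithelial side, 6 of 14 against 1, with Egr1 at 2.07 and Atf3 at 1.92, so the gates differed in genes that respond to handling too.

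The spread between barcodes was measured after every barcode was thinned to 2000 UMIs, which left out 154 epithelial barcodes at 2 weeks and 28 at 5 months, and 130 Tyrobp barcodes at 5 months. The glycolysis genes together gave a median of 4, 7, 8 and 16 UMIs per epithelial barcode in 2 weeks, 5 months, tumour 1 and tumour 2. The first to ninth deciles were 1 to 7, 3 to 13, 3 to 17 and 8 to 37.4. The variance over the mean of this sum, which is 1 for counting noise alone, was 1.35, 6.29, 3.78 and 8.91. This measure grows with the mean, which was 4.0, 8.19, 9.24 and 19.8 UMIs. The SD over the mean was 0.58, 0.88, 0.64 and 0.67, largest at 5 months. At 5 months one barcode held 100 UMIs of the sum, and Aldoa alone had a variance over mean of 9.55.

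The oxygen-responsive genes had medians of 1, 2, 1 and 2 UMIs, and means of 1.21, 1.84, 1.73 and 3.36. Their variance over mean was 1.12, 1.47, 2.00 and 7.05 and their SD over mean 0.96, 0.89, 1.08 and 1.45, both largest in tumour 2. In tumour 2 the single genes with the largest variance over mean, which also follows their level, were Gapdh (5.50), Ero1l (5.32), Aldoa (2.80), Ndrg1 (2.53), Adm (2.40) and Bnip3 (2.34), while Hif1a (0.94) and Pgk1 (1.01) were spread as counting noise would be. In the Tyrobp barcodes the glycolysis sum had medians of 5, 9 and 12 UMIs, and a variance over mean of 1.62, 4.72 and 6.11. The oxygen-responsive sum there was at 1.25, 2.32 and 3.18. The SD over mean was 0.56, 0.65 and 0.65 for the glycolysis sum and 1.06, 1.07 and 1.08 for the oxygen-responsive sum.

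**Figure D4:**
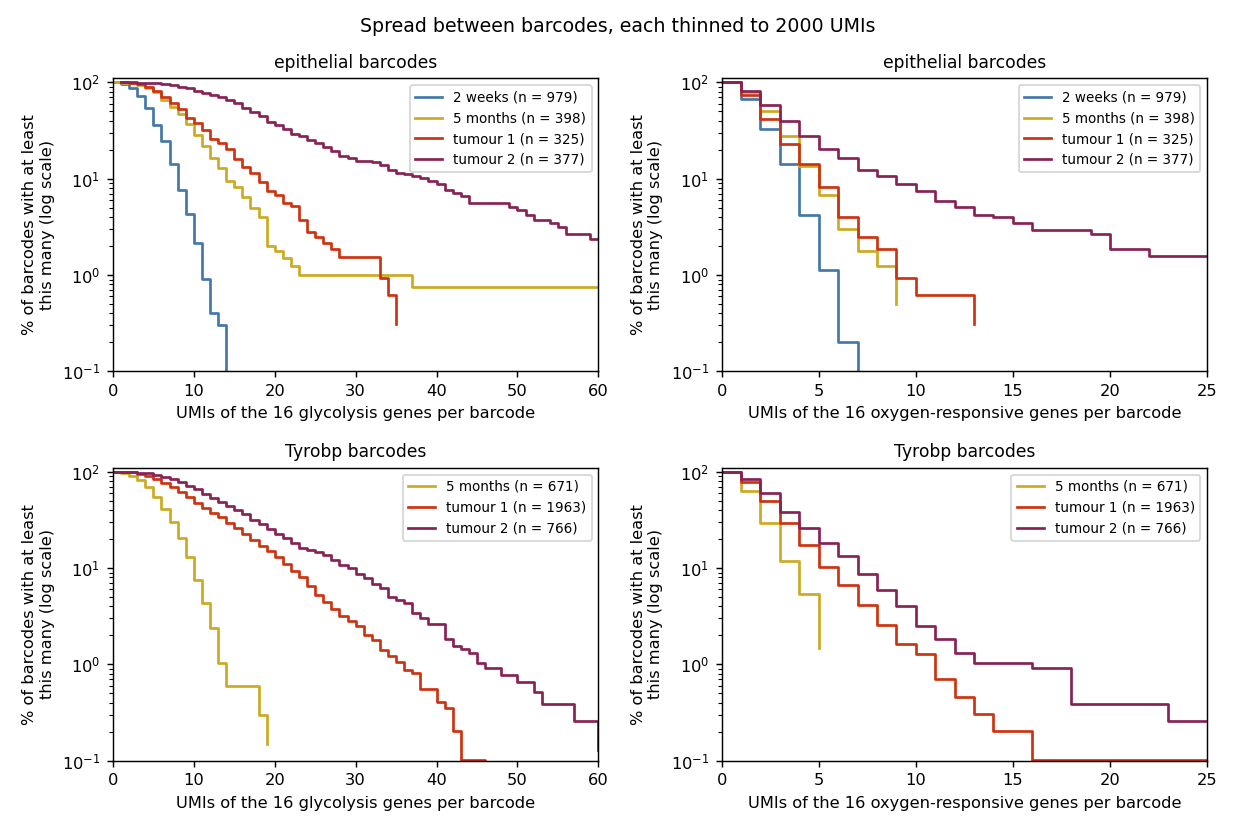
Share of barcodes (y axis, percent, log scale) with at least a given number of UMIs of the glycolysis genes (left, axis ends at 60) or the oxygen-responsive genes (right, axis ends at 25), in epithelial (top) and Tyrobp (bottom) barcodes thinned to 2000 UMIs. The tumour 2 lines lie above the others over most of each range, with a median of 16 glycolysis UMIs per epithelial barcode against 4 at 2 weeks.

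The share of barcodes with a UMI followed the levels. Bnip3 was found in 1.53%, 5.28%, 12.9% and 24.9% of epithelial barcodes after thinning (2.65%, 10.3%, 40.0% and 44.8% before) and in 1.79%, 17.6% and 19.7% of Tyrobp barcodes. The lymphoid barcodes (median UMIs 2064.5, 4470 and 3228) were taken as a reference for free RNA, although lymphocytes may express these genes themselves. There Bnip3 was found in 1.66% at 5 months, 0 of 23 barcodes in tumour 1 (which allows up to 13.0%) and 0.885% in tumour 2. Ero1l was found in 3.37%, 10.3%, 6.46% and 29.2% of epithelial barcodes against 6.87%, 4.35% and 7.08% of lymphoid ones. Relative to the lymphoid share, the epithelial share of Ero1l was higher in tumour 2 than at 5 months. The 23 lymphoid barcodes of tumour 1 were too few to rank that library. Slc16a3 was found in 0 of 979 epithelial barcodes at 2 weeks, which allows up to 0.306% with a UMI (3 counts), and in 0.251%, 3.08% and 5.31% of the others, against 1.88%, 4.35% and 2.65% of lymphoid barcodes. Its epithelial share was thus not above the lymphoid one at 5 months. In tumour 1 the lymphoid share came from 23 barcodes, too few to rank it against the epithelial one. Among Tyrobp barcodes the share with Slc16a3 was 4.77%, 18.2% and 31.7%. Vegfa was found in 1.94%, 9.55%, 12.3% and 7.96% of epithelial and 0.665%, 0 of 23 and 0.885% of lymphoid barcodes.

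Members were found together in the same barcodes in the tumours. Spearman's rho across barcodes between the glycolysis and the oxygen-responsive sums was 0.02, 0.12, 0.29 and 0.40 among epithelial barcodes of the 4 libraries, in the order above, and 0.00, 0.41 and 0.44 among Tyrobp barcodes. These describe barcodes of 1 library each, thinned to one depth. The values near 0 come from the libraries with the lowest counts, where little could be seen. In tumour 2 the epithelial oxygen-responsive sum also had a rho of -0.31 with the mitochondrial share and -0.24 with the UMIs of the barcode, and their part in the pattern was not tested.

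Single genes showed which members took part. In the epithelial barcodes of tumour 2, rho of a gene with the summed other 31 was 0.49 for Aldoa, 0.44 for Gapdh, 0.37 for Bnip3, 0.34 for Ero1l and 0.26 for Adm. When the 377 barcodes were ordered by the summed other 31 genes, the lowest 75 held 8 UMIs of Ero1l and the highest 75 held 188. For Bnip3 these were 6 and 90, for Adm 3 and 33 and for Slc2a1 7 and 49. In the Tyrobp barcodes of tumour 1, the lowest and highest 392 barcodes held 24 and 296 UMIs of Bnip3 and 18 and 199 of Ero1l, but 79 and 61 of Hif1a. In those of tumour 2, 153 barcodes on each side held 7 and 150 UMIs of Bnip3 and 7 and 174 of Ero1l. Hif1a RNA thus did not go with the other members (rho -0.02 and 0.02).

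**Figure D5:**
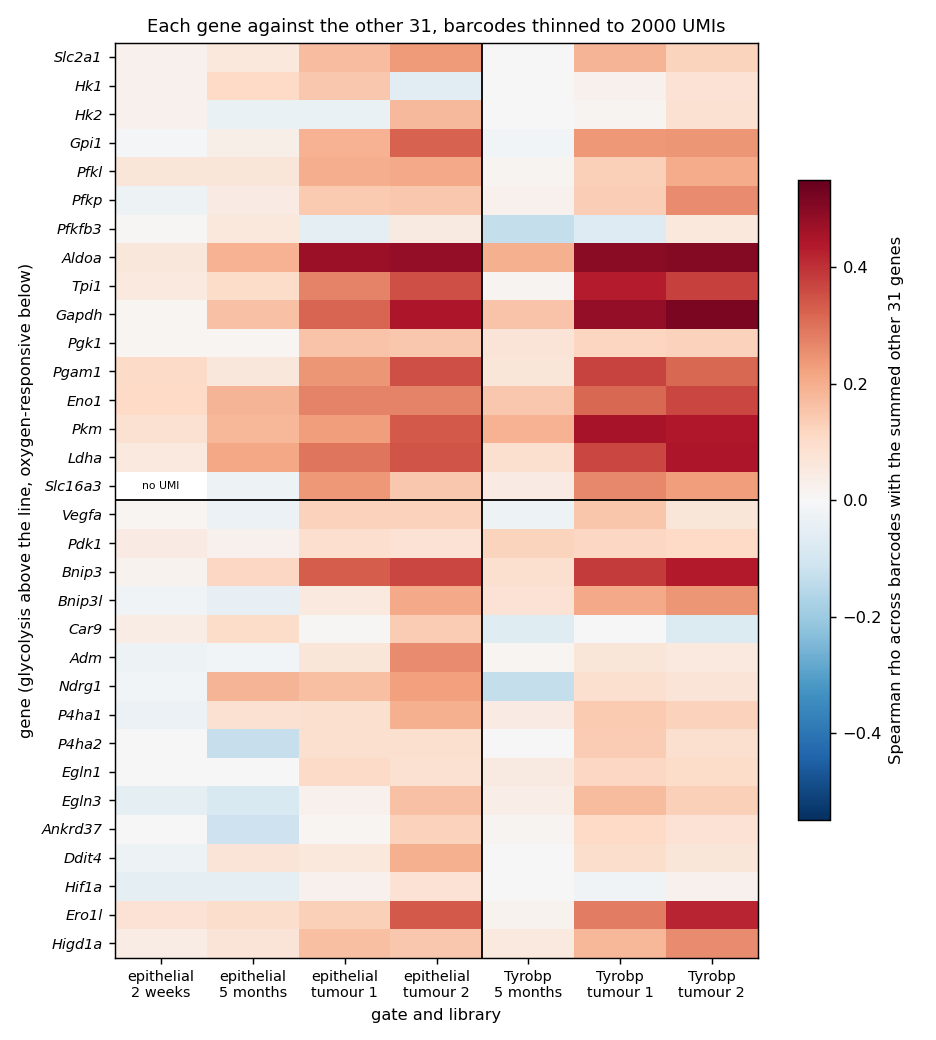
Spearman rho across barcodes (colour scale) of each gene (y axis) with the summed other 31 genes, in each gate and library (x axis), after thinning to 2000 UMIs. Aldoa, Gapdh, Bnip3 and Ero1l are darkest in tumour 2 (epithelial 0.49, 0.44, 0.37 and 0.34), Hif1a is near 0 throughout, and the 2 weeks column is pale.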

How the data were processed

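The labels' protocols name the 10x Chromium 3' kit, version 2, for library preparation. The authors deposited UMI counts per gene and barcode, made with Cell Ranger on mm10 (GRCm38) per the submitters' processing notes, with no version given in the sources used here. The gene name prefix of 2 libraries was removed. Another 694 genes, listed at 5 months alone, held 4.59% of its UMIs and were left out. Library totals were then 6722044, 14369203, 23736366 and 13061942 UMIs. Barcodes needed 500 detected genes and no more than 10% of UMIs from mitochondrial genes (this left 1301, 4668, 2640 and 1765). Scrublet's own threshold called 5, 0, 1 and 8 doublets and was not used. An alternative removed the top 0.8% per 1000 barcodes (17, 187, 59 and 25), and barcodes meeting both definitions were dropped.

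Counts were summed per library and definition and tested in R 4.3.3 with edgeR 4.0.16 (filterByExpr, TMM, glmQLFit, glmQLFTest; SE from the fold and F) over all genes, with a Benjamini-Hochberg threshold of 0.05; DESeq2 1.42.0 was an alternative. On simulated counts for tumour against 2 weeks (11538 genes), 96 of 100 genes changed by 2 on the log2 scale were recovered, 11 of 50 changed by 1, and 8 of 11338 unchanged genes were called. The simulated spread between libraries was set smaller than that of the data (coefficient of variation estimated at 0.42), and only well-counted genes were changed. These counts thus do not give the recovery or the false calls in the real data. Intervals are 95% Poisson or exact binomial (Clopper-Pearson), and the limit given for a count of 0 is 3 counts. End repeats were counted in GENCODE M21 transcripts. Every member was described; values were given in each library for those past the test or the 2-fold rule, and up to 4 genes per direction of other lists by smallest p or largest ratio. The members, lists and marker subsets were chosen with earlier results of these data known. The Trp53 and Brca1 reads are 3' tags and say nothing of the deleted parts. One gene of the other lists is not reported here.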

Additional observations from a re-analysis of the deposited data

How the results depend on the processing

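Counts of members called against 2 weeks ranged from 0 to 13 higher. They were 10 with DESeq2, 12 with library size alone, 13 without a filter on low counts, 4 with 6 UMIs in the definitions, 1 without Scrublet doublets, 0 with barcodes of both definitions kept, and, chosen after seeing the data, 5 in Epcam barcodes and 0 in progenitor-marker barcodes. All genes called (173) became 490, 890, 1140, 380, 0 with both kept, 413 and 0, and 267 without a barcode filter. DESeq2 had 359 genes higher and 131 lower, and library size alone 533 and 357, against 90 and 83. Against 5 months, library size alone and no low-count filter each called 3 members (Pgk1, Bnip3, Slc16a3) in place of 0, and all genes called (39) were 129 with DESeq2 (46 higher, 83 lower), 332 (136 higher, 196 lower), 497, 70 with 6 UMIs, 0 with both kept, 22 without doublets, 87 in Epcam and 0 in progenitor-marker barcodes. In the Tyrobp barcodes, DESeq2 and no low-count filter each called 4 members, with 174 and 268 genes in all, and C1q barcodes 1 gene. For the gates, leaving out a library gave 1 to 3 members higher, 3 to 6 lower and 2304 to 3140 genes (3693 with all). Without the library block, 2 members were higher, 1 lower, and 2241 genes were called; with library size alone 4 were lower. For the interaction, 0 members became 1 with DESeq2 and without the low-count filter, and 2 with both kept (Vegfa, Slc2a1); its 4 genes became 58, 27, 246, 8 without a barcode filter, 12 with 6 UMIs, 523 with both kept, 8 without doublets and 0 without the block. In the untested comparisons, members higher at 5 months were 2 in hormone-sensing-marker barcodes and members lower 0 in progenitor-marker barcodes; members higher in tumour 2 were 11 by library size in epithelial barcodes, and in Tyrobp barcodes 1 with the stricter barcode filter and 1 in C1q barcodes, with 1 lower and 355 genes apart there. The sign of the ratio changed for Pfkfb3 (-1.08), Pfkl (-0.86) and Vegfa (-3.26) in hormone-sensing-marker barcodes and for Egln3 (-0.16) in C1q barcodes. At 5 months the hormone-sensing-marker subset held 37 barcodes, where 3 UMIs are 14.7 CPM. Counts there were too few to show a reversal of Pfkfb3, Pfkl or Vegfa. The Bnip3 share was 0.531%, 2.82% and 12.2% at 2 weeks, 5 months and tumour 2 when thinned to 1000 UMIs, and 2.65%, 10.3%, 40.0% and 44.8% without thinning.

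For tumours against premalignant libraries, no paired analysis was possible because the premalignant groups hold 1 library each; the comparison of epithelial with Tyrobp barcodes was paired by library. Leaving out a tumour left no residual degrees of freedom for the tumour comparisons and the interaction. The cause of these changes was not tested, and the subsets also held fewer barcodes.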
